A study of Mus musculus with 6 samples.

Results

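The 9 genes Pthlh, Pth1r, Enpp1, Alpl, Enpp2, Spp1, Mgp, Runx1 and Runx2 were taken by symbol from a table of 52997 gene symbols, and all 9 were found there. They act in mineral formation and in signalling by parathyroid hormone-related protein. RNA sequencing compared mesenchymal stromal cells, the fibroblast-like cells that build and maintain connective tissue, between 2 tissues of C57BL/6 mice aged 8 weeks at homeostasis. There were 3 libraries from the skeletal muscle of the hindlimb and 3 from lymph nodes (cervical, brachial, axillary and inguinal nodes combined), and 1000 sorted cells went into each. The labels state no allele or treatment, no sort marker and no number of mice behind a library. The count table numbers the muscle libraries 2, 3 and 4, whereas the muscle sample titles are 2a, 2b and 3. Muscle columns were therefore tied to the tissue only, and although the submitters describe 3 biological replicates per tissue, a pair of the titles shares a number. P-values measure the spread between these libraries, which may be partly technical.

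Mineral forms in a matrix where phosphate is plentiful and inorganic pyrophosphate, a small molecule that blocks crystal growth, is scarce. ENPP1 makes extracellular pyrophosphate from ATP, and tissue-nonspecific alkaline phosphatase, the product of Alpl, breaks it down. MGP and osteopontin (Spp1) are secreted proteins that bind mineral or restrain its growth, and mice that lack Mgp calcify their arteries. Parathyroid hormone-related protein (Pthlh) acts locally on the receptor PTH1R, which signals mainly through cyclic AMP and delays the maturation of cartilage cells. RUNX2 is the transcription factor that sets up the bone-forming lineage, and RUNX1 is best known from blood formation. ENPP2, also called autotaxin, is a relative of ENPP1 that produces the lipid signal lysophosphatidic acid and is made in quantity by lymph node stroma.

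Total counts ran from 415460 in muscle library 4 to 2397134 in lymph node library 2, and muscle library 4 was the shallowest by a wide margin. Levels are CPM, read counts divided by a library size that was scaled by the trimmed mean of M-values (TMM). Across the 10823 genes that passed the filter on low counts, muscle library 4 had a Pearson r of 0.705 and 0.702 with muscle libraries 2 and 3, whose r with each other was 0.952 (log2 CPM, over genes, which are not independent replicates). All 12 stromal markers were counted in both tissues, and their sum ran from 67699 to 86651 CPM in muscle, against 84764 to 105283 CPM in lymph node. The 7 reticular cell markers of lymph node summed to 5.38 to 28.5 CPM in muscle, against 508 to 562 CPM in lymph node, where the marker Ccl21a was at 0 as in muscle. Cxcl13 at 341 to 410 CPM and Il6 at 125 to 183 CPM made up most of the lymph node sum. Ccl19 did not exceed 3.44 CPM in any library, and Madcam1 and Tnfsf11 did not exceed 1.05 CPM. Il7 overlapped, at 2.69 to 13.8 CPM in muscle against 4.10 to 6.87 CPM in lymph node. Muscle library 4 also held leukocyte transcripts. Its T cell, B cell and myeloid marker sums were 548, 2239 and 1911 CPM, whereas the highest sums in the other 5 libraries were 14.8, 263 and 56.9 CPM. Cd74, also a B cell gene, at 1142 CPM and the general leukocyte gene Ptprc at 589 CPM made up most of the myeloid sum. The members' differences are therefore given with and without muscle library 4. The immediate early genes Fos, Junb, Egr1 and Atf3 and the heat shock gene Hspa1a, picked with earlier results known, had a sum of 1167 to 1647 CPM in muscle, against 11080 to 12019 CPM in lymph node. Hspa1a by itself overlapped, at 80.6 to 158 CPM in muscle against 129 to 358 CPM in lymph node. The part of these genes in the differences below was not tested.

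Libraries of muscle stromal cells held a far larger share of Pthlh and Enpp1 RNA than lymph node libraries, and more of Mgp. Pthlh was 15.3-fold, Enpp1 11.6-fold and Mgp 4.56-fold higher in muscle. The levels of Enpp2, Alpl, Pth1r and Runx1 did not differ past the threshold, Runx2 was too low to be tested, and Spp1 was almost absent from both tissues. Of the 7 members tested, 3 rose and 0 fell at an adjusted p under 0.05 (two-sided edgeR quasi-likelihood test with Benjamini-Hochberg adjustment over all 10823 genes), and the same 3 had an unadjusted p under 0.05. DESeq2 and limma-voom also called 3 higher and 0 lower. Of all tested genes, 4.32% were called, and 1.46% were called higher in muscle. The levels of muscle and lymph node did not overlap for Pthlh, Enpp1 and Mgp, and they did not overlap for 23.6% of all tested genes. Leaving out muscle library 4, 8 members could be tested and 3 were called, against 12.4% of all genes tested in that fit. Each log2 fold change is the muscle level minus that of lymph node, with its standard error. The cells of a library were measured together, so fewer cells of a type and less RNA per cell cannot be told apart.

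**Figure D1:**
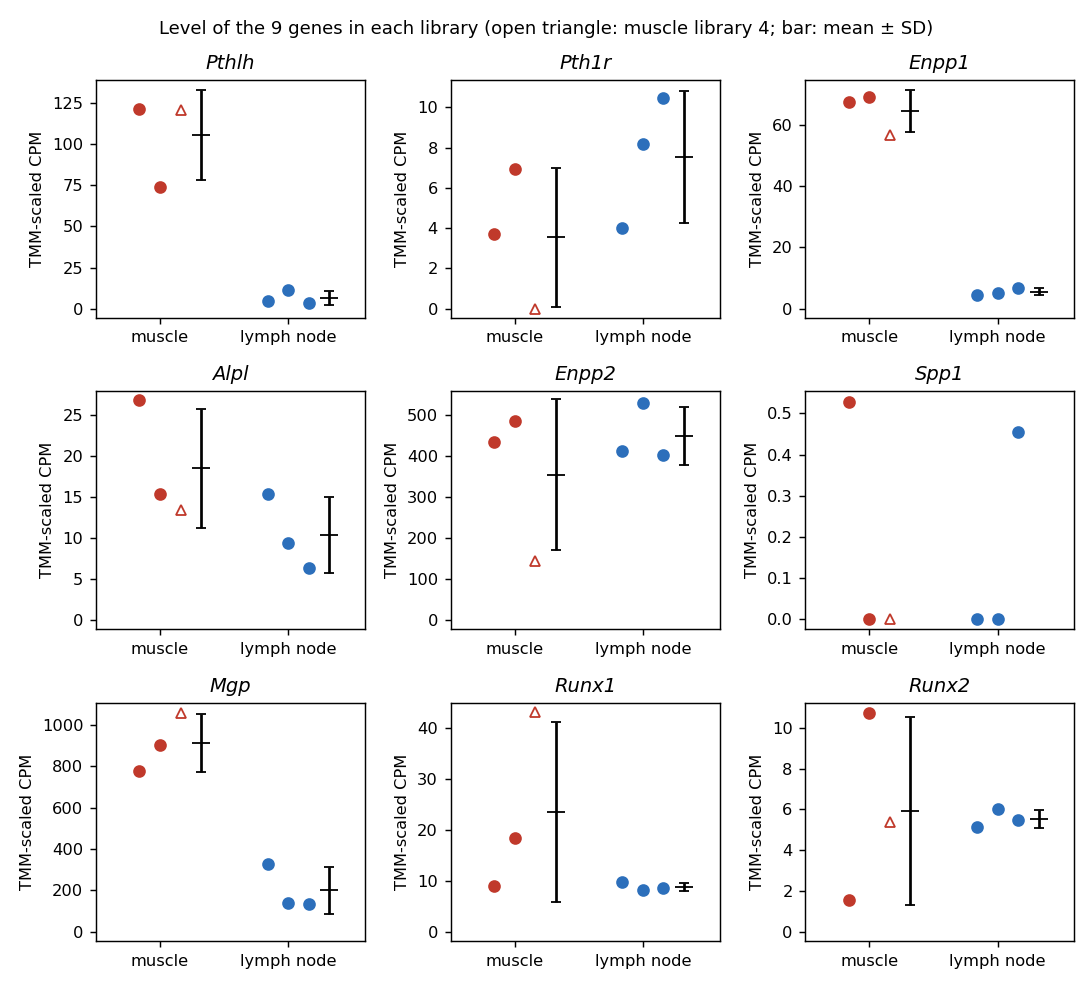
TMM-scaled CPM (vertical axes, linear, a separate scale for each gene) of the 9 genes in each of 3 muscle libraries, left, and 3 lymph node libraries, right. Open triangles mark muscle library 4 and black bars give the mean ± SD, omitted for Spp1, which had 2 counts in all; Pthlh, Enpp1 and Mgp are the panels without overlap between tissues.

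The ligand Pthlh lies on chromosome 6 at 147252101 to 147264183 on the minus strand (GRCm38, the assembly also called mm10). It measured 121, 73.8 and 121 CPM in muscle libraries 2, 3 and 4, against 4.57, 11.6 and 3.64 CPM in lymph node libraries 1, 2 and 3. The lowest muscle library was thus several times above the highest lymph node library, and muscle library 4 did not stand apart for this gene. The muscle mean was 105 ± 27.4 CPM and the lymph node mean 6.60 ± 4.35 CPM (SD, n = 3 each), a log2 fold change of 3.94 ± 0.42 (edgeR adjusted p = 0.00114). With muscle library 4 left out it was 3.84 ± 0.35 (edgeR adjusted p = 3.32e-06). Lymph node library 2, with 27 of the 43 lymph node counts, lowered the fold most, since without it the log2 fold change was 4.63. No 25-base word of the Pthlh transcripts occurs in another annotated gene.

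The upstream windows of Pthlh and Enpp1 are shown because these genes had the largest differences. Each is the 250 bases before the start site as RefSeq places it (GRCm38.p6). The Pthlh span given above, from GENCODE, reaches 147264183, inside the Pthlh window. Part of that window therefore lies within the gene in that annotation. Capitals mark matches on either strand to the RUNX core, ACCACA or on the other strand TGTGGT, or to the core of the cyclic AMP response element, TGACG or on the other strand CGTCA.
Pthlh, chr6:147264014-147264263, minus strand: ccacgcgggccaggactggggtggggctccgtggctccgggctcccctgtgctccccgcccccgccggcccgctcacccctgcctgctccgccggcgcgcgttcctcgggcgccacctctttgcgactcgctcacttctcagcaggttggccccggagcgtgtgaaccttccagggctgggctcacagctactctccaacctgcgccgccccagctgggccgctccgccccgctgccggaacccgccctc
Enpp1, chr10:24712160-24712409, minus strand: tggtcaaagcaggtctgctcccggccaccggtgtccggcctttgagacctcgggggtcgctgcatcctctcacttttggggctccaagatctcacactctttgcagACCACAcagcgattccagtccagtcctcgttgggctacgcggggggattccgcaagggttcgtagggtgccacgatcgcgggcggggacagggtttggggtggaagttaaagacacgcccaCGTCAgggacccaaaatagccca
The Enpp1 window holds 1 match to each core and the Pthlh window holds neither. Among 32851 annotated mouse windows of the same length, 14.05% hold the RUNX core and 17.8% the cyclic AMP core. Neither core contains the other. For 7 of the 9 genes a total of 12 windows were found, of which 3 held the RUNX core (Enpp1, Spp1 and Runx2). The cyclic AMP core was held by 3 of the 12 as well (Pth1r, Enpp1 and Alpl). Enpp2 and Mgp are named only.

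The receptor Pth1r was near the limit of counting in both tissues. It had 7, 9 and 0 counts in muscle libraries 2, 3 and 4, against 7, 19 and 23 counts in lymph node libraries 1, 2 and 3. The ranges in CPM overlapped, with means of 3.54 ± 3.46 CPM for muscle and 7.54 ± 3.28 CPM for lymph node (SD, n = 3 each). The 0 of muscle library 4 allows up to 8.06 CPM at its depth (3 counts), which is above the level of lymph node library 1. Floors and counting intervals cover counting error only. The log2 fold change was -0.81 ± 0.67 (edgeR adjusted p = 0.662), with a 95% interval from -2.31 to 0.69. It was -0.59 ± 0.55 in the 5 other libraries (edgeR adjusted p = 0.603). A difference in the receptor was not detectable at this depth. Myl3, a gene on the other strand, covers 3.25% of the exon bases of Pth1r. The strand setting of the counting is not given, and the part of Myl3 in these counts was not tested.

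Other genes of the parathyroid hormone family were close to 0. The hormone gene Pth and the receptor gene Pth2r never exceeded 2.86 CPM, and Pth2, which encodes a peptide that acts on the second parathyroid hormone receptor, had 0 counts in every library. Of 8 listed ligands, receptors and receptor-associated proteins 4 were tested, 2 rose (Pthlh and Ramp1) and 0 fell. The median log2 fold change of the 4 was 1.12 (0.02 over all tested genes). Pth1r (-0.81 ± 0.67) and Ramp2 (0.18 ± 0.37, edgeR adjusted p = 0.884) were not called. Ramp1 encodes an accessory protein best known as part of the receptor for the neuropeptide CGRP, not as a parathyroid hormone receptor. It measured 91.8, 79.9 and 18.8 CPM in muscle libraries 2, 3 and 4, against 13.1, 18.9 and 17.3 CPM in lymph node libraries 1, 2 and 3. Muscle libraries 2 and 3 were high, and muscle library 4 lay within the lymph node range. Its log2 fold change was 2.05 ± 0.44 (edgeR adjusted p = 0.0302). Dropping any of the 5 other libraries ended the call (largest adjusted p 0.209), while dropping muscle library 4 gave a log2 fold change of 2.36 ± 0.21 (edgeR adjusted p = 2.96e-06).

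Downstream of PTH1R, 29 of 31 listed genes of cyclic AMP signalling were tested, and 1 rose and 0 fell (median log2 fold change 0.13). The gene that rose was Adcy7, an adenylyl cyclase, which makes cyclic AMP. It measured 201, 168 and 239 CPM in muscle libraries 2, 3 and 4, against 77.7, 57.1 and 58.7 CPM in lymph node libraries 1, 2 and 3, with no overlap. The log2 fold change of Adcy7 was 1.64 ± 0.22 (edgeR adjusted p = 0.00367), and its adjusted p was 0.053 without lymph node library 2. With muscle library 4 dropped, 4 of 29 tested genes of this list were called, against 12.4% of all genes tested in that fit. Adcy7 and the phosphodiesterase Pde10a (1.03 ± 0.23) were higher in muscle, while the phosphodiesterase Pde3a (-0.99 ± 0.17) and the kinase Sik1 (-1.15 ± 0.27) were lower. Phosphodiesterases break cyclic AMP down.

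Enpp1, the pyrophosphate-producing enzyme, lies on chromosome 10 at 24637914 to 24712159 on the minus strand. It was the most even of the 3 called genes, with 67.5, 69.2 and 56.4 CPM in muscle libraries 2, 3 and 4 and 4.57, 5.16 and 6.83 CPM in lymph node libraries 1, 2 and 3. The lowest muscle value was far above the highest lymph node value. The muscle mean was 64.4 ± 6.91 CPM and the lymph node mean 5.52 ± 1.17 CPM (SD, n = 3 each), a log2 fold change of 3.54 ± 0.29 (edgeR adjusted p = 4.45e-04). Leaving out muscle library 4 gave 3.59 ± 0.26 (edgeR adjusted p = 4.09e-07), and no single library decided the call. The lymph node counts were 8, 12 and 15, so the fold rests on few reads there. When each library was thinned to the total of muscle library 4, the log2 fold change was 3.58 and the adjusted p 0.0537.

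Alpl, whose product removes the pyrophosphate that ENPP1 makes, measured 26.9, 15.4 and 13.4 CPM in muscle libraries 2, 3 and 4. In lymph node libraries 1, 2 and 3 it measured 15.4, 9.45 and 6.37 CPM. Lymph node library 1 lay within the muscle range. The log2 fold change of Alpl was 0.93 ± 0.45 (edgeR adjusted p = 0.39), with a 95% interval from -0.09 to 1.95. Leaving out muscle library 4 gave 1.07 ± 0.39 (edgeR adjusted p = 0.10), and limma-voom with library weights called it higher in muscle (1.23, adjusted p = 0.0291). The ratio of Enpp1 to Alpl within a library, both as CPM per kilobase of exons, was 0.987, 1.77 and 1.65 in muscle libraries 2, 3 and 4, against 0.117, 0.214 and 0.421 in lymph node libraries 1, 2 and 3. The ratio was above its lymph node range in all 3 muscle libraries. It is given as a description, and RNA levels do not measure enzyme activity or pyrophosphate.

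Of 14 listed genes that handle pyrophosphate and phosphate, 12 were tested, 1 rose (Enpp1) and 1 fell (Smpd3), and the median log2 fold change was -0.06. Smpd3, a neutral sphingomyelinase needed for normal bone mineralization in mice, measured 107, 87.6 and 83.3 CPM in muscle libraries 2, 3 and 4. It measured 180, 279 and 346 CPM in lymph node libraries 1, 2 and 3, so every lymph node library was above every muscle library. Its log2 fold change was -1.52 ± 0.26 (edgeR adjusted p = 0.0109). The Smpd3 call needed muscle library 3, lymph node library 2 and lymph node library 3 (adjusted p 0.0657, 0.0808 and 0.0771 without each). Nt5e and Ank were called as well when muscle library 4 was left out. Nt5e, the ectoenzyme CD73 that turns AMP into adenosine and phosphate, was lower in muscle in that fit (-2.80 ± 0.37, edgeR adjusted p = 1.27e-04). Its level was 4.22 and 11.5 CPM in muscle libraries 2 and 3 but 40.3 CPM in muscle library 4, against a range of 37.7 to 63.2 CPM in lymph node. Ank encodes a membrane protein that raises extracellular pyrophosphate. It had 0 CPM in muscle library 4 and 49.6 CPM in muscle library 2, against 18.7 to 24.0 CPM in lymph node, and was higher in muscle in the 5 other libraries (0.98 ± 0.27, edgeR adjusted p = 0.0254). Phospho1, a phosphatase of mineralizing cells, and Abcc6, a liver transporter that feeds ENPP1 with ATP, were below the filter and never exceeded 3.01 CPM.

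Enpp2, the source of lysophosphatidic acid, lies on chromosome 15 at 54838901 to 54952892 on the minus strand. It measured 435, 484 and 145 CPM in muscle libraries 2, 3 and 4, against 413, 529 and 403 CPM in lymph node libraries 1, 2 and 3. Muscle libraries 2 and 3 lay inside the lymph node range, and only muscle library 4 was low. The log2 fold change was -0.31 ± 0.36 (edgeR adjusted p = 0.776), with a 95% interval from -1.13 to 0.51. Leaving that library out turned it to 0.03 ± 0.15 (edgeR adjusted p = 0.951), with a 95% interval from -0.30 to 0.35, a narrower interval than with all 6 libraries. An antisense-strand gene model, Gm26684, covers 5.97% of the exon bases of Enpp2, and the strand setting of the counting is not given, so those reads cannot be told apart from sense reads.

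In the ENPP family 5 of 7 genes were tested, and Enpp1 alone was called by the test with all libraries. Enpp3 measured 45.7 to 83.8 CPM in muscle, against 80.8 to 129 CPM in lymph node (-0.58 ± 0.28, edgeR adjusted p = 0.383). Enpp4 (-1.15 ± 0.50, edgeR adjusted p = 0.319) and Enpp5 (-1.20 ± 0.32, edgeR adjusted p = 0.0736) were below the lymph node range in all 3 muscle libraries. With muscle library 4 left out both were called lower in muscle, Enpp4 at -0.85 ± 0.24 (edgeR adjusted p = 0.0339) and Enpp5 at -1.60 ± 0.18 (edgeR adjusted p = 2.19e-05). Enpp6 and Enpp7 were below the filter, with 21 muscle and 42 lymph node counts for Enpp6, of which muscle library 4 held 16 and lymph node library 1 held 29. In a list of lysophosphatidic acid receptors and lipid enzymes, 6 of 11 genes were tested, and 1 fell and 0 rose (median log2 fold change -0.34). The gene that fell was Plpp3, a phosphatase that inactivates lysophosphatidic acid, with 584, 751 and 468 CPM in muscle libraries 2, 3 and 4 against 1337, 1298 and 1575 CPM in lymph node libraries 1, 2 and 3. Its log2 fold change was -1.22 ± 0.21 (edgeR adjusted p = 0.0116). The Plpp3 call ended on dropping muscle library 2, or any one from lymph node (largest adjusted p 0.0945). Setting muscle library 4 aside, the receptor Lpar6 (-1.07 ± 0.33) and the phospholipase Pla1a (-0.75 ± 0.13) were called lower in muscle as well. The receptor Lpar1 measured 349 to 387 CPM in muscle, against 275 to 332 CPM in lymph node, without overlap but not past the threshold (0.26 ± 0.17, edgeR adjusted p = 0.555).

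**Figure D2:**
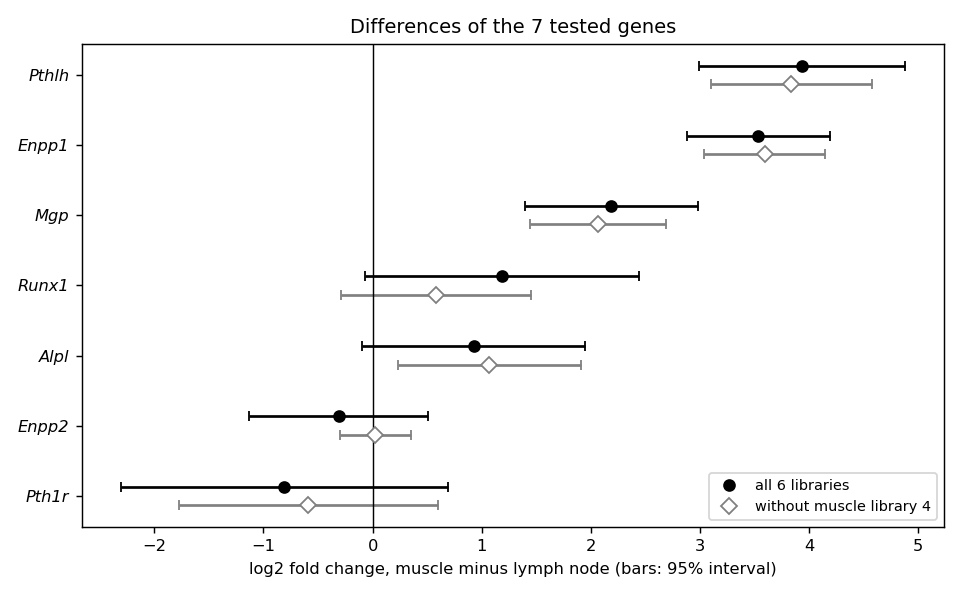
Log2 fold change, muscle minus lymph node (horizontal axis), of the 7 tested genes with 95% intervals, with all 6 libraries (black circles) and without muscle library 4 (open diamonds). The intervals of Pthlh, Enpp1 and Mgp lie above 0 in both fits, and Enpp2 moves from -0.31 to 0.03 when muscle library 4 is left out.

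Mgp, the vitamin K-dependent inhibitor of calcification, had the highest level of the members per kilobase of exons. It lies on chromosome 6 at 136872435 to 136875823 on the minus strand, and none of its 25-base words occurs in another gene. It measured 779, 904 and 1059 CPM in muscle libraries 2, 3 and 4, against 329, 139 and 132 CPM in lymph node libraries 1, 2 and 3. All muscle libraries were above all lymph node libraries, and lymph node library 1 was well above the other two. The muscle mean was 914 ± 141 CPM and the lymph node mean 200.2 ± 112 CPM (SD, n = 3 each), a log2 fold change of 2.19 ± 0.35 (edgeR adjusted p = 0.00834). In the 5 libraries other than muscle library 4 it was 2.07 ± 0.29 (edgeR adjusted p = 2.05e-04). Mgp lost its call without lymph node library 2 (1.96, adjusted p = 0.0779) or 3 (1.94, adjusted p = 0.0663), and without lymph node library 1 the log2 fold change was 2.73.

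Among 20 listed mineral-binding and vitamin K-dependent genes 8 were tested, of which Mgp rose and 0 fell (median log2 fold change -0.05). Ggcx, the carboxylase that activates MGP, measured 95.3 to 118 CPM in muscle, against 92.4 to 129 CPM in lymph node (-0.07 ± 0.21, edgeR adjusted p = 0.928). Vkorc1, which recycles the vitamin K that this step uses, measured 59.1 to 99.7 CPM in muscle, against 99.2 to 103 CPM in lymph node (-0.34 ± 0.22, edgeR adjusted p = 0.554). The genes that mark mineralized bone and dentine, Bglap, Bglap2, Ibsp, Dmp1, Mepe and Dspp, were below the filter.

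Spp1, which encodes osteopontin, had 1 count in muscle library 2, 1 count in lymph node library 3 and 0 counts in the other 4 libraries. At these depths 3 counts correspond to between 1.29 CPM in lymph node library 2 and 8.06 CPM in muscle library 4. The ratio of muscle to lymph node from these single counts was 1.76, with a 95% counting interval from 0.02 to 138, so no difference was detectable. Spp1 was below the filter without muscle library 4 too. Gm42793, a model on the same strand, covers 18.75% of the Spp1 exon bases, and how the authors' counting treated reads that fall in both is not given. Macrophages are a known source of osteopontin. In muscle library 4, the library with leukocyte transcripts, Spp1 was at 0 counts, as were the 5 myeloid markers Csf1r, Cd68, Itgam, C1qa and C1qc of 14 listed. Of the same list, Lyz2 measured 83.3 CPM, Cd14 51.1 CPM and Tyrobp 26.9 CPM there, each above its level in the other 5 libraries. Their part in the Spp1 counts was not tested. Of 9 listed receptor subunits for osteopontin 8 were tested, and 1 rose, the integrin subunit Itga9 (1.16 ± 0.28, edgeR adjusted p = 0.0494), and 0 fell (median 0.43). The Itga9 call was lost with RLE scaling (adjusted p = 0.0505) and on dropping any of the libraries apart from muscle library 4 (largest adjusted p 0.253). With muscle library 4 dropped, 5 of 8 tested genes of the list were called, against 12.4% of all genes tested in that fit. Itga9 (0.96 ± 0.22), Itgb5 (0.75 ± 0.16), Itga5 (0.77 ± 0.18) and the hyaluronan receptor Cd44 (0.65 ± 0.17) were higher in muscle, and Itga8 (-0.94 ± 0.28) was lower.

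Runx1 lies on chromosome 16 at 92601466 to 92826149 on the minus strand. It measured 8.97, 18.4 and 43.0 CPM in muscle libraries 2, 3 and 4, against 9.71, 8.16 and 8.65 CPM in lymph node libraries 1, 2 and 3. Muscle library 4 was the highest, with 16 counts, and muscle library 2 lay within the lymph node range. The log2 fold change was 1.19 ± 0.56 (edgeR adjusted p = 0.364), with a 95% interval from -0.07 to 2.44. The other 5 libraries gave 0.58 ± 0.41 (edgeR adjusted p = 0.449), so muscle library 4 set much of the size. Leukocytes express Runx1, and the marker sums given above for muscle library 4 moved with its value there. Their part in it was not tested. Runx3, the third family member and mainly a lymphocyte gene, had 6 counts in muscle library 4, 2 in muscle library 2 and 0 in muscle library 3, against 3, 1 and 1 in lymph node libraries 1, 2 and 3.

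Runx2 (chromosome 17, 44495987 to 44814797, minus strand) had 3, 14 and 2 counts in muscle libraries 2, 3 and 4, against 9, 14 and 12 counts in lymph node libraries 1, 2 and 3. It was below the filter for testing with all libraries. On the CPM scale it measured 1.58, 10.8 and 5.38 CPM in muscle, on both sides of its lymph node range of 5.14 to 6.01 CPM. The counting ratio of muscle to lymph node was 0.954, with a 95% interval from 0.516 to 1.71. Leaving out muscle library 4, Runx2 could be tested and its log2 fold change was 0.01 ± 0.68 (edgeR adjusted p = 0.995). A gene model antisense to Runx2, Runx2os1, covers 5.87% of its exon bases.

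The distal start sites of Runx1 and Runx2 share a run of 22 bases just downstream of the start, which holds the RUNX core 2 times. The runs are shown because they are a sequence feature common to both transcription factor genes, with the shared run in capitals, beside the upstream RUNX core of Spp1 (core in capitals).
Runx1, chr16:92826026-92826055, minus strand: tcatAAACAACCACAGAACCACAAGTtggg
Runx2, chr17:44814584-44814613, minus strand: tcacAAACAACCACAGAACCACAAGTgcgg
Spp1, chr5:104434971-104435000, plus strand: tttttttttttaACCACAaaaccagaggag
Counts per gene do not separate the start sites of Runx1 or Runx2, so which of them was used is not shown by these data. Of the 2 Spp1 windows, 1 holds the RUNX core and the other does not.

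In the list of RUNX genes, their partner and cofactors, 17 of 20 genes were tested and edgeR called 0, with 2 at an unadjusted p under 0.05, while DESeq2 and limma-voom each called 2 higher in muscle. Cbfb, the partner subunit that all RUNX proteins need to bind DNA well, measured 29.0, 37.7 and 48.4 CPM in muscle libraries 2, 3 and 4, against 32.5, 16.8 and 22.8 CPM in lymph node libraries 1, 2 and 3 (0.62 ± 0.34, edgeR adjusted p = 0.452). Setting muscle library 4 aside, edgeR called the zinc finger factor Zfp423 (1.06 ± 0.22) and Wwtr1, which encodes the coactivator TAZ (0.83 ± 0.21), both higher in muscle. Of 28 listed bone and cartilage cell genes 7 were tested and edgeR called 0 of them, with 3 at an unadjusted p under 0.05, and their median log2 fold change was -0.60. DESeq2 called 1 lower and limma-voom called 0. Without muscle library 4, edgeR called 2 of 9 tested genes of this list, against 12.4% of all genes tested in that fit. Atf4, a stress-responsive factor also needed by osteoblasts, was lower in muscle (-0.74 ± 0.18), and Phex was higher. The bone-lineage factor Sp7, which acts after RUNX2, never exceeded 2.28 CPM, and Sost, Ihh and Tnfsf11 did not exceed 1.05 CPM. Phex, a bone endopeptidase whose loss causes phosphate wasting, was chosen after its values were seen. It had 17, 30 and 0 counts in muscle libraries 2, 3 and 4, against 2, 0 and 0 counts in lymph node libraries 1, 2 and 3, and it was below the filter with all libraries. Without muscle library 4 Phex was called higher in muscle (5.32 ± 0.86, edgeR adjusted p = 6.87e-04), a fold that rests on few lymph node reads.

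**Figure D3:**
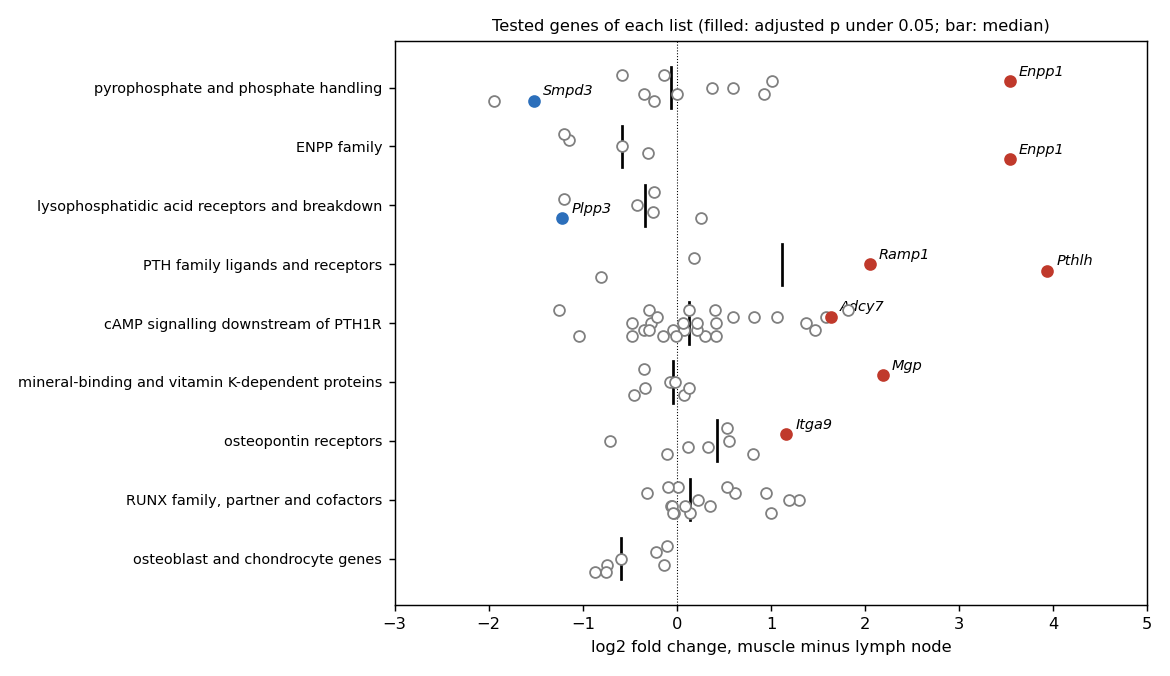
Log2 fold change, muscle minus lymph node (horizontal axis), of every tested gene in 9 lists (rows), with called genes filled and named and a black bar at each median. Apart from Enpp1, Pthlh and Mgp, 5 genes are filled, of which Ramp1, Adcy7 and Itga9 lie above 0 and Smpd3 and Plpp3 below it.

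Leaving the 9 members aside, 87 of 134 listed genes were tested, and 3 rose and 2 fell, which is 5.75% of those tested, against 4.32% of all tested genes. In the fit that left out muscle library 4, 11 of 89 were called higher and 11 lower, 24.7% of those tested, against 12.4% of all genes tested in that fit. With all libraries the median log2 fold change of the 87 genes was -0.02, against 0.02 over all tested genes.

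Levels of different genes were set side by side as CPM per kilobase of annotated exons. In muscle the order of the means began with Mgp at 770 ± 118, followed by Pthlh at 65.1 ± 16.9 and Enpp2 at 61.4 ± 31.7 CPM per kilobase (SD, n = 3). Pthlh and Enpp2 did not differ beyond their spread. Enpp1 at 6.28 ± 0.67 and Alpl at 4.6 ± 1.80 CPM per kilobase came next and overlapped within their spread, as did Runx1 at 1.95 ± 1.46, Pth1r at 1.21 ± 1.18 and Runx2 at 0.668 ± 0.522. Without muscle library 4 the muscle means were 79.5 for Enpp2 and 60.2 for Pthlh, and 1.81 for Pth1r and 1.14 CPM per kilobase for Runx1, so the order within both of these pairs turned round. In lymph node the order began with Mgp at 169 ± 94.3 and Enpp2 at 77.6 ± 12.2 CPM per kilobase. The intervals of mean ± SD overlap, but the libraries do not. Mgp measured 278, 117 and 112 CPM per kilobase in lymph node libraries 1, 2 and 3, against 71.4, 91.6 and 69.7 for Enpp2. Pthlh at 4.08 ± 2.69, Alpl at 2.58 ± 1.14 and Pth1r at 2.58 ± 1.12 CPM per kilobase followed and did not differ beyond their spread. Runx1 at 0.735 ± 0.0657, Runx2 at 0.627 ± 0.0501 and Enpp1 at 0.538 ± 0.114 CPM per kilobase came last before Spp1, and each of them overlapped its neighbour within the spread. Enpp1 was thus the fourth member in order in muscle and the eighth in lymph node.

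**Figure D4:**
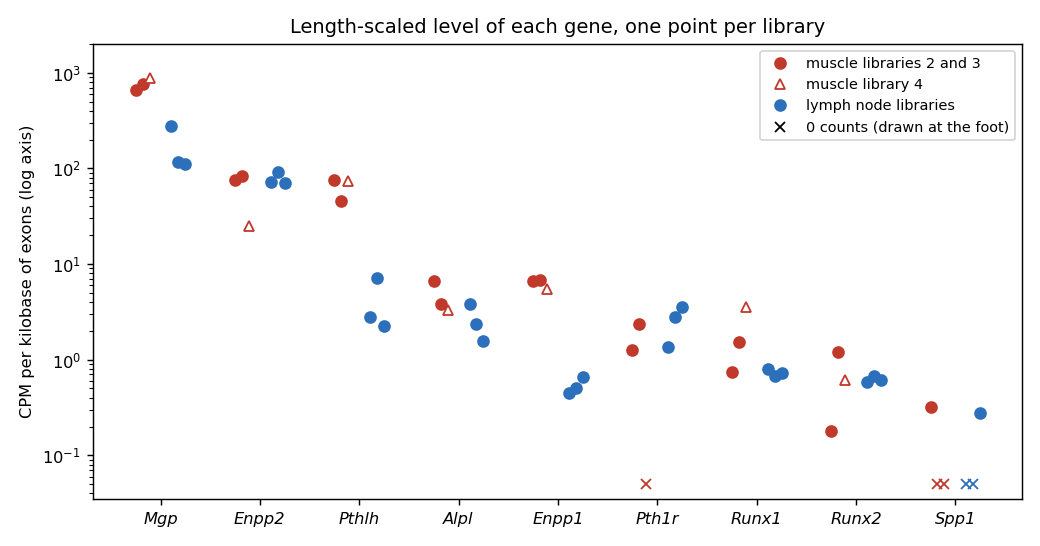
CPM per kilobase of exons (log axis) of each gene in every library, in order of the mean of all 6 libraries, with muscle at left and lymph node at right of each pair. Crosses at the foot are libraries with 0 counts; Enpp1 and Pthlh show the widest gap between tissues and Enpp2 overlaps apart from muscle library 4.

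Markers of other cells were compared beside the 3 called genes. The 7 tenocyte markers summed to 243, 450 and 67.2 CPM in muscle libraries 2, 3 and 4, against 58.8, 27.5 and 19.6 CPM in lymph node libraries 1, 2 and 3, higher in every muscle library. Of these markers 4 were tested and 2 were called, both higher in muscle. They were Comp (5.24 ± 0.65, edgeR adjusted p = 0.00222) and Thbs4 (4.04 ± 0.61, edgeR adjusted p = 0.00587). Tnmd (2.79 ± 0.80, edgeR adjusted p = 0.103) and Fmod (0.74 ± 1.08, edgeR adjusted p = 0.823) were not called. The defining tendon factor Scx was at 0 in muscle libraries 3 and 4 and in lymph node libraries 1 and 3. The 12 muscle fibre markers ranged, as a sum, from 123 to 142 CPM in muscle, against 40.0 to 62.4 CPM in lymph node. Of these markers 3 were tested, and Atp2a1 was called higher in muscle (4.27 ± 0.73, edgeR adjusted p = 0.0104). Tnnt3 (1.66 ± 0.72, edgeR adjusted p = 0.313) and Ttn (0.56 ± 0.28, edgeR adjusted p = 0.399) were not called. The 11 mural cell markers had sums of 157 to 183 CPM in muscle, against 195 to 217 CPM in lymph node, but single markers went opposite ways. Cspg4 was higher in muscle (3.01 ± 0.27, edgeR adjusted p = 4.91e-04). Abcc9 measured 17.4 to 37.6 CPM in muscle, against 122 to 169 CPM in lymph node, and was lower in muscle (-2.59 ± 0.30, edgeR adjusted p = 0.00143). The 11 endothelial markers had sums of 247 to 390 CPM in muscle, against 274 to 361 CPM in lymph node. Tek alone measured 121 to 366 CPM in muscle, against 260 to 340 CPM in lymph node. Pecam1, Prox1 and Lyve1 measured 59.1, 29.6 and 24.2 CPM in muscle library 4, and at most 4.61 CPM in any other library. Cdh5, Cldn5, Esam, Kdr, Emcn, Flt4 and Vwf did not exceed 5.92 CPM in any library. The part of these transcripts in the 3 differences was not tested.

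The tested genes with the most similar profiles were found by the root mean square difference of log2 CPM over the 6 libraries, each gene centred on its own mean, among 6709 genes of at least 20 CPM on average. Closest to Pthlh were Cilp, a cartilage matrix protein (0.40 log2 units), Hmcn2, a large extracellular protein (0.41), and the unnamed model CT009757.6 (0.53). Closest to Enpp1 were Cspg4, a surface proteoglycan also found on mural cells (0.22), Cilp (0.38) and Adamtsl2, a secreted microfibril-binding glycoprotein (0.42). Cspg4 measured 73.3, 81.5 and 69.9 CPM in muscle libraries 2, 3 and 4, against 6.85, 9.45 and 11.4 CPM in lymph node libraries 1, 2 and 3, without overlap. Closest to Mgp were Pdgfrl, a secreted protein related to a growth factor receptor (0.23), the homeobox factor Meox1 (0.33) and the thrombin receptor F2r (0.33). Pdgfrl measured 118, 114 and 220 CPM in muscle libraries 2, 3 and 4, against 44.0, 19.3 and 17.8 CPM in lymph node libraries 1, 2 and 3, highest like Mgp in lymph node library 1 among the lymph node libraries. The calls of Pdgfrl and F2r were lost without lymph node library 2 or 3. F2r lost its call without muscle library 2 or 3 too. These likenesses are descriptions over 6 libraries of 2 tissues.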

How the data were processed

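Counts were deposited by the authors as raw whole-number counts per gene symbol, 1 column per library. Per the labels' protocols, polyadenylated RNA was copied from an oligo(dT) primer, amplified, tagmented and sequenced as paired reads of 25 bases, without molecular identifiers. The submitters' processing notes name STAR 2.5.4, featureCounts and mm10, but no annotation, strand setting or treatment of ambiguous reads. Floors and intervals of count ratios cover counting error only, and intervals of log2 fold changes cover the spread between libraries. Lymph node columns matched titles, and muscle columns were matched to the tissue only.

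edgeR 4.0.16 (R 4.3.3) was used with filterByExpr, TMM factors and its quasi-likelihood test for tissue, over 3 and 3 libraries, two-sided, with Benjamini-Hochberg adjustment over all 10823 tested genes and a threshold of 0.05. The standard error is the size of the log2 fold change over the square root of F. Positions, exon lengths and shared 25-base words came from GENCODE M21 (GRCm38). DESeq2 1.42.0, limma 3.58.1 (voom), other scalings and filters, thinning, summed muscle libraries and leaving out each library were alternatives, and a replicate block on the column numbers was added after seeing the data. The test procedure was tested on simulated data. Libraries within a tissue all differed by more than sampling noise (chi-square over its degrees of freedom at least 2.39). Named genes are the 9 members, up to 4 called genes of each list by smallest p, genes of the ENPP, RUNX and parathyroid hormone families, and the 3 nearest profiles of each called member. Other genes named with values were chosen after their values were seen. Members and lists were chosen with earlier results of these data known.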

Additional observations from a re-analysis of the deposited data

How the results depend on the processing

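Pthlh kept its call under all 19 alternatives (log2 fold change 3.62 to 4.63 when 1 library was left out), Enpp1 under 18, with thinning as the exception (3.58, no longer called), and Mgp under 17, being lost without lymph node library 2 or 3 (1.94 to 2.73 when 1 library was left out). Alpl was called by limma-voom with library weights (1.23) and with the replicate block below (1.40). Enpp2 ranged from -0.60 to 0.03 when 1 library was left out and changed sign without muscle library 4 (0.026). Pth1r and Runx1 were not called under any alternative that tested them. For genes of all lists together, 8 of 94 tested were called, against 15 of 139 with no filter, 14 with DESeq2 and 14 with limma-voom. Library weights gave 24 and thinning 4 of 71. With muscle libraries 2 and 3, 2 and 4, or 3 and 4 summed, 5, 23 and 22 were called. With 1 library left out the count was 2 to 25. Over all genes 468 of 10823 tested were called, against 945 of 39490 with no filter, 686 with DESeq2 and 630 with limma-voom. Library weights gave 1366 and thinning 136 of 6536. With the same pairs summed 222, 1435 and 1266 were called, and with 1 library left out 142 to 1391. The cause was not tested. Dividing by the longest transcript gave mean levels over 6 libraries of 5.16 for Enpp1, 5.75 for Alpl, 130 for Enpp2, 779 for Mgp and 2.76 CPM per kilobase for Runx1, against 3.41, 3.59, 69.5, 469 and 1.34 with all exons. Scaling by total counts moved the median log2 fold change of all genes from 0.02 to 0.10. Depth limits Pth1r, Runx2 and Spp1. The column numbers 2 and 3 occur in both tissues, but muscle columns and titles are numbered differently, and the deviations of same-numbered libraries from their tissue means had r = -0.0258 and 0.0208 over genes, so the numbers were not taken as pairs. A replicate block on them, chosen after seeing the data, rests on 4 libraries and called 4 members, 30 list genes and 1530 genes in all.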
